A study of Mus musculus with 5 samples.

Results

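Transcript levels of p53 target genes were followed in whole mouse embryos with and without the folate receptor gene Folr1. The set was fixed by name as Trp53, Cdkn1a, Ccng1, Mdm2, Trp53inp1, Perp, Bax, Phlda3, Btg2 and Zmat3, and its measured members were the probe sets annotated to 1 of these symbols only. This gave 8 of the 10 genes, with 14 probe sets, among 12393 genes with such a probe set on the array. Trp53 and Bax were not analysed here. Each array held RNA of C57BL6J embryos at gestation day 9.5. Folr1-/- embryos (2 arrays) came from Folr1+/- dams and sires, with the dams on a folate-supplemented diet from before mating through gestation. Folr1+/+ embryos (3 arrays) are described without a separate statement on diet, so a difference in diet and the genotype cannot be told apart. Decidual capsule, chorion and amnion were dissected away, the yolk sac is not named, and embryos were genotyped by PCR. For both groups, the labels do not say whether 1 array holds 1 embryo or several. The RNA was amplified in 2 rounds before biotin labelling and hybridisation to Affymetrix Mouse Genome 430A arrays, so p-values measure the spread between these arrays only.

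p53, the product of Trp53, is a transcription factor that accumulates after DNA damage, nucleotide shortage and other stresses and switches on genes that stop the cell cycle, repair DNA or start apoptosis. It binds DNA as a tetramer on a pair of short half-sites. Mdm2, itself switched on by p53, encodes the ubiquitin ligase that marks p53 for destruction, and mouse embryos without Mdm2 die early unless Trp53 is also lost. Cdkn1a encodes p21, the inhibitor of cyclin-dependent kinases through which p53 halts division.

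The sequence before the transcription start was taken from RefSeq (build GRCm38.p6), where 7 of the 10 genes had an entry, with 8 starts in all. Each entry was searched for exact matches to the 10-base p53 half-site consensus, which reads the same on both strands, from 250 bases before to 50 bases after the start. Of 32851 promoters, 8.36% held an exact match, as did 5 of the 8 starts of the set. The set was named as p53 target genes with earlier results of these data known, and it holds Trp53 itself. These matches are therefore a description. The 250 bases before the start are shown for Cdkn1a and Ccng1, whose signals passed the test, and for Mdm2 and Btg2, whose signals did not; capitals mark exact half-sites. For Cdkn1a the first of 2 annotated starts is shown (plus strand, chr17:29090729-29090978), for Ccng1 the minus strand at chr11:40755287-40755536, for Mdm2 the minus strand at chr10:117710759-117711008 and for Btg2 the minus strand at chr1:134079156-134079405.
Cdkn1a: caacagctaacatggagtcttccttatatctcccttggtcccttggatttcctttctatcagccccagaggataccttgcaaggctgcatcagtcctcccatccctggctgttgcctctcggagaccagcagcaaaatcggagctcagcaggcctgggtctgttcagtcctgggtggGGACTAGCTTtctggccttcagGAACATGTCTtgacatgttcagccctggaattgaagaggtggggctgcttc
Ccng1: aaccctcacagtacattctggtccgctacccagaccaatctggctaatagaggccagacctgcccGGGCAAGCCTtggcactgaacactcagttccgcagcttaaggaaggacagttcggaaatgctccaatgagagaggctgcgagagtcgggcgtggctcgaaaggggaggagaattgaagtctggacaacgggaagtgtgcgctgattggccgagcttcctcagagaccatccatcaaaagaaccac
Mdm2: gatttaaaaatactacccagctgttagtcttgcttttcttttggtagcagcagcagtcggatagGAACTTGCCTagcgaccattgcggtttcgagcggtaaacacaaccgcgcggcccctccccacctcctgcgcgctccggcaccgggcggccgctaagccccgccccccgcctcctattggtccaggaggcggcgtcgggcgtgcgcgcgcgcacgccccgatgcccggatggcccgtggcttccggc
Btg2: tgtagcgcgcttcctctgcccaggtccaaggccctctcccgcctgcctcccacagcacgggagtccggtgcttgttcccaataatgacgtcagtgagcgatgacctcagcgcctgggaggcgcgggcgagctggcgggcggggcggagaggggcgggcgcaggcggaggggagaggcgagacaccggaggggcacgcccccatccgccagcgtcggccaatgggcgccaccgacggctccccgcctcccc
The Cdkn1a stretch held 2 exact half-sites, beginning 73 and 51 bases before that start and separated by 12 bases. The 10 bases just after the second one differed from the consensus at 1 position. A pair of exact half-sites at most 13 bases apart was found in 0.0731% of all promoters. The Ccng1 stretch held 1 exact half-site, beginning 185 bases before the start, and the 10 bases just before it differed from the consensus at 1 position. Pairs with at most 1 mismatch occurred in 1.09% of promoters. Mdm2 had 1 exact half-site, beginning 186 bases before the start. Trp53 and Bax had 1 each, that of Bax beside a stretch that made a pair with 1 mismatch. Btg2, Phlda3 and the second start of Cdkn1a had none in this window.

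The arrays of a group were alike, and the groups stood apart in tissue markers and in sex-linked genes. Correlations of log2(signal + 16) over probe sets were at least 0.973 within a group and at most 0.970 between groups. Folr1 itself had signals of 50.2 and 41.8 in Folr1-/- arrays and 57.0, 50.01 and 40.2 in Folr1+/+ arrays (log2 fold change -0.07 ± 0.20, SE, limma adjusted p = 0.858). What the targeted allele lacks is not stated in the labels, so this signal does not check the genotype, and directions rest on the group labels. Xist, made from the inactive X chromosome, had signals of 419 and 770 in Folr1-/- arrays against 24.95 to 35.7 in Folr1+/+ arrays. Y-linked Eif2s3y had 104 in Folr1-/- replicate 1 and 3.13 in Folr1-/- replicate 2, against 300.3 to 372 in Folr1+/+ arrays. Folr1-/- replicate 1 carried signal of both kinds. Sex-linked signals thus differed between the groups, so a difference in the sex of the embryos and the genotype cannot be told apart. Over all genes, 1114 of 7436 tested genes passed an adjusted p of 0.05 (15.0%), 609 of them higher in Folr1-/- (8.19%) and 505 lower (6.79%).

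Of the 8 measured p53 target genes, 4 rose in Folr1-/- embryos, 0 fell and 4 did not pass the test, against 8.19% of all tested genes called higher. The 4 were Cdkn1a, Trp53inp1, Perp and Ccng1. The set was chosen with earlier results of these data known, so its counts and median are a description and not a test. The median log2 fold change of the 8 genes was 0.94, against -0.06 over all 12393 genes before the filter on dim signals, and all 8 passed that filter. The groups did not overlap in 5 of the 8 genes, with Folr1-/- higher in each, as in 22.5% of all tested genes. Leaving out either Folr1-/- array left 4 called, where 3.03% of all genes were called higher without replicate 1 and 4.98% without replicate 2. In whole embryos, a change in the share of a cell type and a change of RNA per cell cannot be told apart.

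**Figure D1:**
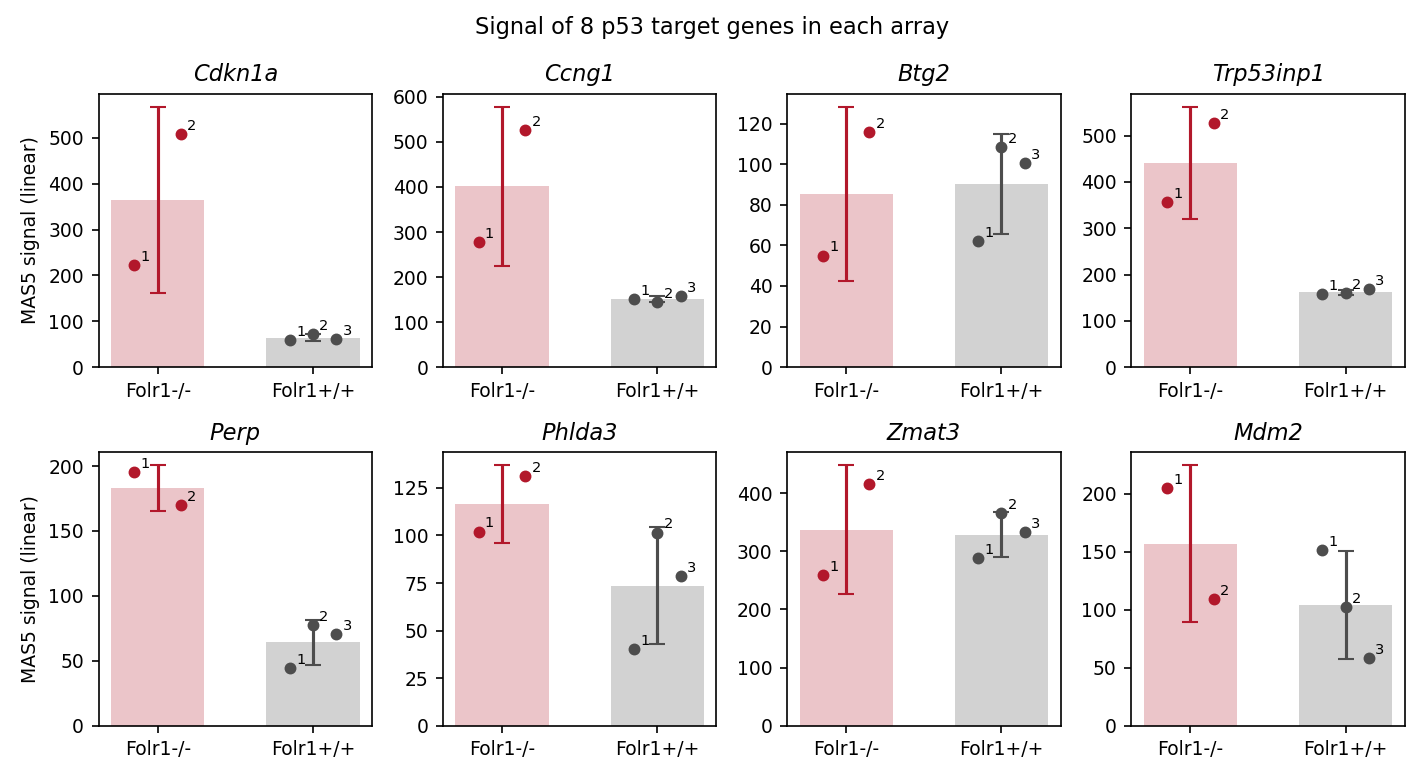
MAS5 signal (linear scale, vertical axis from 0) of the 8 measured p53 target genes in Folr1-/- arrays (red) and Folr1+/+ arrays (grey). Points are single arrays with their replicate number, bars the group mean and error bars the SD. The Folr1-/- points lie above every Folr1+/+ point for Cdkn1a, Ccng1, Trp53inp1, Perp and, narrowly, Phlda3, and overlap with them for Btg2, Zmat3 and Mdm2.

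Cdkn1a, the p21 gene, showed the largest change in the set. Its signal was 222 and 509 in the Folr1-/- arrays, against 58.1, 72.5 and 61.7 in the Folr1+/+ arrays. Both Folr1-/- arrays lay above all Folr1+/+ arrays, and Folr1-/- replicate 2 lay far above replicate 1. The group means were 365 ± 203 (SD, n = 2) and 64.1 ± 7.48 (SD, n = 3), and the log2 fold change of Folr1-/- over Folr1+/+ was 2.14 ± 0.27 (SE, limma adjusted p = 0.00035). Only 0.363% of tested genes had a larger positive change. Without Folr1-/- replicate 2 the log2 fold change was 1.57, and without replicate 1 it was 2.72, each from a fit with 1 Folr1-/- array. The first of its annotated starts held the pair of exact half-sites, and a link between that pair and the change was not tested.

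Ccng1 encodes cyclin G1, which recruits a phosphatase to Mdm2 and acts as a feedback arm of the pathway. Its signal was 277 and 527 in Folr1-/- arrays, against 150.2, 145 and 157 in Folr1+/+ arrays. The Folr1+/+ arrays were nearly equal, and both Folr1-/- arrays lay above them, replicate 2 highest. This gave a log2 fold change of 1.26 ± 0.23 (SE, limma adjusted p = 0.0033), and it was 0.81 without Folr1-/- replicate 2.

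Btg2 encodes an antiproliferative protein that works with the mRNA deadenylation machinery. Its signals were 55.0 and 116 in the Folr1-/- arrays, against 62.3, 108 and 101 in the Folr1+/+ arrays. One Folr1-/- array lay below and one above all Folr1+/+ arrays. The log2 fold change was -0.11 ± 0.28 (SE, 95% interval -0.71 to 0.49, limma adjusted p = 0.824), so that a change of the size of that of Ccng1 lies outside the interval.

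Genes tied to cell death and stress responses came next. Trp53inp1 encodes a nuclear protein that promotes p53 phosphorylation and also takes part in autophagy. Its signal was 356 and 527 in Folr1-/- arrays, against 158, 160.0 and 168 in the Folr1+/+ arrays. The groups were far apart relative to the narrow Folr1+/+ spread. Trp53inp1 rose by a log2 fold change of 1.34 ± 0.18 (SE, limma adjusted p = 0.00057).

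Perp encodes a tetraspan membrane protein that promotes apoptosis and is also a part of desmosomes, the junctions of epithelia. Signals were 196 and 170.3 in Folr1-/- arrays, against 44.5, 77.7 and 70.3 in the Folr1+/+ arrays. Here the Folr1-/- arrays were close to each other. Perp rose by a log2 fold change of 1.33 ± 0.21 (SE, limma adjusted p = 0.0016).

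Phlda3, whose product competes for membrane lipids and so restrains the kinase AKT, gave signals of 102.0 and 131 in Folr1-/- arrays, against 40.5, 101.5 and 78.6 in the Folr1+/+ arrays. The groups did not overlap, but the lowest Folr1-/- array and the highest Folr1+/+ array were almost equal. The log2 fold change of 0.62 ± 0.27 (SE, 95% interval 0.023 to 1.22) did not pass (limma adjusted p = 0.152), and it passed narrowly without Folr1+/+ replicate 2 (0.85, 0.0497), where 7.33% of genes were called higher. Without Folr1+/+ replicate 1 it was 0.32 (0.332).

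Zmat3, a zinc finger RNA-binding protein gene, gave signals of 258 and 416 in Folr1-/- arrays, against 288, 365 and 333 in the Folr1+/+ arrays. The Folr1-/- arrays lay on either side of the Folr1+/+ arrays. The log2 fold change was 0.0042 ± 0.20 (SE, 95% interval -0.43 to 0.44, limma adjusted p = 0.990).

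Mdm2, the negative regulator of p53, gave signals of 205 and 109 in Folr1-/- arrays, against 151, 102 and 58.3 in the Folr1+/+ arrays. The groups overlapped, and the order of the Folr1-/- arrays was the reverse of that for Cdkn1a. The log2 fold change was 0.55 ± 0.32 (SE, 95% interval -0.14 to 1.24, limma adjusted p = 0.271). Omitting Folr1-/- replicate 1 gave 0.14 and omitting Folr1-/- replicate 2 gave 0.96. Omitting Folr1+/+ replicate 1 gave 0.82 and omitting Folr1+/+ replicate 3 gave 0.24, and none of these 4 fits called Mdm2.

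The probe sets of a gene did not all move together. In the fit over probe sets, 12 of the 14 were bright enough to test, and 5 rose, 0 fell and 7 did not pass, while 6.31% of 12228 tested probe sets were called higher and 5.27% lower. Ccng1 had 3 probe sets. The second, 1450016_at, had 194 and 276 in Folr1-/- arrays against 72.5, 85.2 and 52.8 in Folr1+/+ arrays (log2 fold change 1.54 ± 0.22, SE, limma adjusted p = 0.0014), and the third, 1450017_at, had 62.9 and 73.0 in Folr1-/- arrays against 41.6, 59.0 and 46.4 in Folr1+/+ arrays and did not pass (0.38 ± 0.20, adjusted p = 0.248). In each of the 3 both Folr1-/- arrays lay above every Folr1+/+ array, so the direction was shared and the size was not. Such separation of groups was seen in 20.9% of tested probe sets. Without Folr1-/- replicate 2 the brightest probe set of Ccng1 missed the threshold in this fit (0.81, adjusted p = 0.052), and so did Perp without Folr1-/- replicate 1 (1.24, adjusted p = 0.060).

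The second probe set of Cdkn1a, 1421679_a_at, was dim, with 3.06 and 22.9 in Folr1-/- arrays against 6.95, 3.30 and 10.9 in Folr1+/+ arrays. That of Trp53inp1, 1416927_at, had at most 2.13 in Folr1-/- arrays and at most 11.3 in Folr1+/+ arrays. Neither reached the level needed for a test. Averaging the probe sets of a gene lowered the log2 fold change of Cdkn1a to 1.20 (limma adjusted p = 0.024) and that of Trp53inp1 to 0.54, where its call was lost (0.070). Mdm2 had a second probe set, 1427718_a_at, with 41.4 and 37.5 in Folr1-/- arrays against 30.0, 9.06 and 27.1 in Folr1+/+ arrays, with no overlap but no call (0.59 ± 0.28, adjusted p = 0.193). Btg2 also had a second one, 1416250_at, with 31.3 and 16.4 in Folr1-/- arrays against 18.2, 37.4 and 20.2 in Folr1+/+ arrays (-0.05 ± 0.27, adjusted p = 0.928), in which the higher Folr1-/- array was the lower one of the first.

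**Figure D2:**
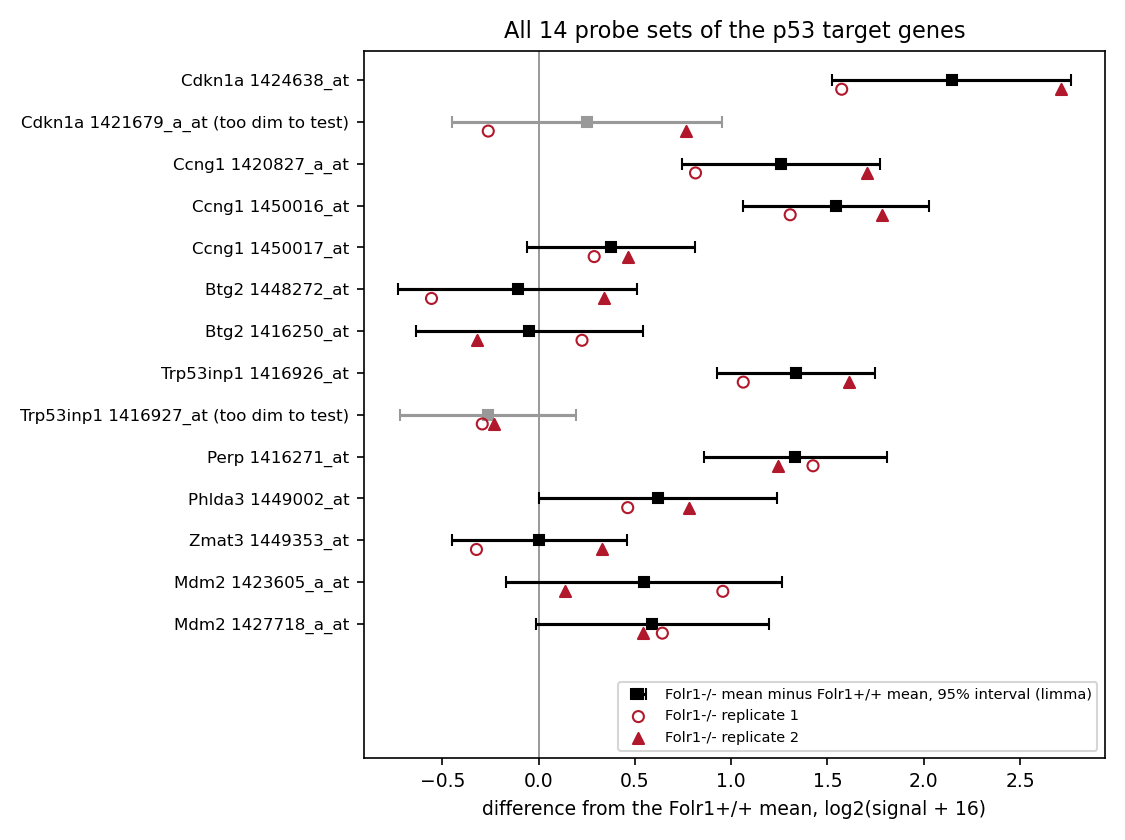
Difference from the Folr1+/+ mean on the log2(signal + 16) scale (horizontal axis) for each of the 14 probe sets. Squares are the Folr1-/- mean with the 95% interval of the limma fit over probe sets, grey where the signal was too dim to test; red circles and triangles are Folr1-/- replicates 1 and 2. For Cdkn1a 1424638_at the replicates lay at 1.57 and 2.72, for Perp at 1.425 and 1.24.

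The 2 Folr1-/- arrays differed from each other in most of these genes. In 6 of the 8 genes Folr1-/- replicate 2 was the higher array, and in Perp and Mdm2 replicate 1 was. The share of all tested genes with replicate 2 higher was not counted, so this order is not read as a trait of the set. The gap between them for Cdkn1a was 1.14 on the log2 scale, and only 0.336% of tested genes had a larger gap. The gaps of Btg2 (0.89), Ccng1 (0.89) and Mdm2 (-0.82) were exceeded by 1.01%, 1.06% and 1.55% of tested genes. Those of Zmat3 (0.65) and Trp53inp1 (0.55) were exceeded by 3.81% and 7.36%, and that of Phlda3 (0.32) by 26.7%. For Perp the gap was -0.18, which 51.3% of genes exceeded. These gaps enter the standard errors above only in part, since limma draws each variance toward that of genes with like signal. The gaps have no replicate of their own.

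**Figure D3:**
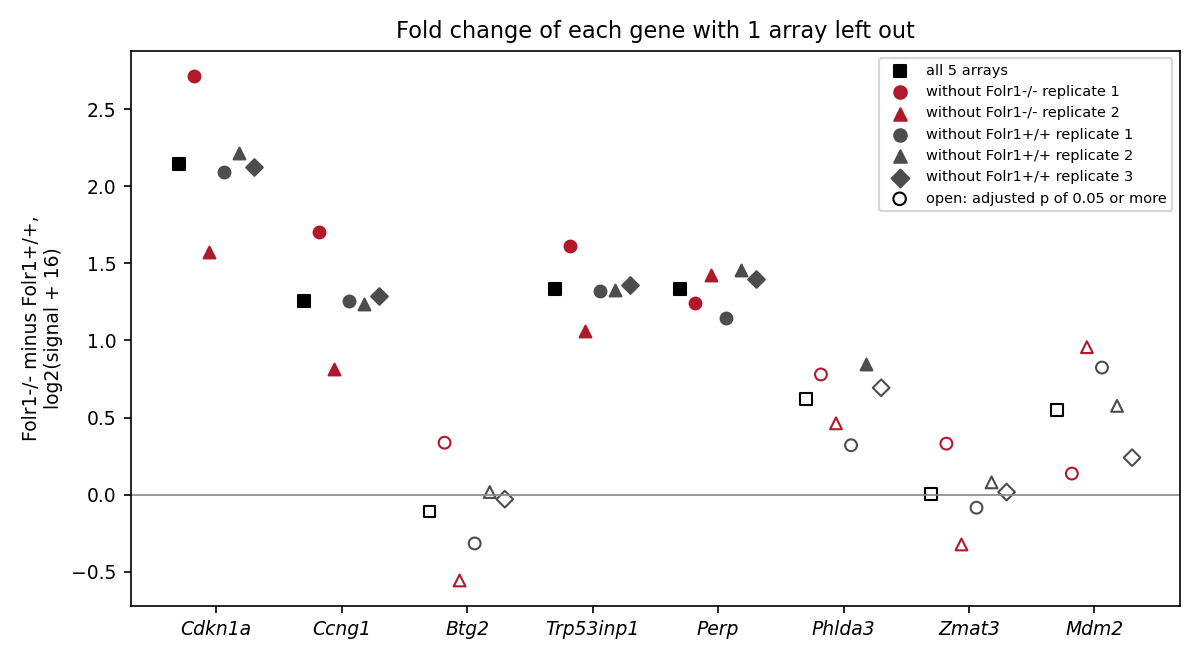
Log2 fold change of Folr1-/- over Folr1+/+ (vertical axis) for each gene in the fit of all 5 arrays (black squares) and with 1 array left out, red where a Folr1-/- array and grey where a Folr1+/+ array was left out. Filled marks passed an adjusted p of 0.05. Red marks come from fits with 1 Folr1-/- array, whose p-values hold no spread between Folr1-/- arrays. Cdkn1a, Ccng1, Trp53inp1 and Perp were filled in every fit, while Btg2 and Zmat3 fell on both sides of 0.

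Other known p53 targets were called about as often as all genes. Of 46 listed, 41 were on the array and 28 bright enough to test, and of these 2 rose, 2 fell and 24 did not pass (14.3% called, against 15.0% of all genes), and their median log2 fold change was -0.0065. The thiamine transporter gene Slc19a2 had signals of 197 and 218 in Folr1-/- arrays against 93.1, 117 and 107 in Folr1+/+ arrays (log2 fold change 0.88 ± 0.17, SE, limma adjusted p = 0.0055), but the mean of its probe sets gave 0.32 (0.214). Rps27l, a ribosomal protein gene close to Rps27, rose by 0.58 ± 0.16 (0.028). The receptor gene Notch1 and the mTORC1 inhibitor gene Ddit4 had log2 fold changes of -0.97 ± 0.21 (0.0089) and -0.76 ± 0.23 (0.044). Slc19a2 was the 1 called gene without Folr1-/- replicate 1, where Notch1 had -0.61 (0.126), and Notch1 the 1 called gene without Folr1-/- replicate 2, where Slc19a2 had 0.82 (0.059). Rps27l and Ddit4 lost their calls without either, as well as without Folr1+/+ replicate 3, Rps27l also without Folr1+/+ replicate 1 and Ddit4 also without Folr1+/+ replicate 2. Leaving out Folr1+/+ replicate 3 left 1 higher and 1 lower.

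Several well-known targets did not pass. The exonuclease gene Aen had a log2 fold change of 0.0097 ± 0.15 (SE), and the stress-response genes Sesn1 and Sesn2 had -0.22 ± 0.17 and 0.39 ± 0.23. Pmaip1, which encodes the BH3-only death protein NOXA, was under the filter on dim genes. It had signals of 36.2 and 71.2 in Folr1-/- arrays against 9.14, 7.52 and 16.3 in Folr1+/+ arrays. With no filter it passed (1.34 ± 0.28, limma adjusted p = 0.031), as 3.52% of the 12393 genes did in the higher direction. Dcxr, a carbonyl reductase gene, was also dim and passed with no filter (1.76 ± 0.26, 0.0073). Without the filter 3 of the 41 listed targets on the array were called higher and 1 lower. The receptor gene Fas was at most 1.44 on every array.

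**Figure D4:**
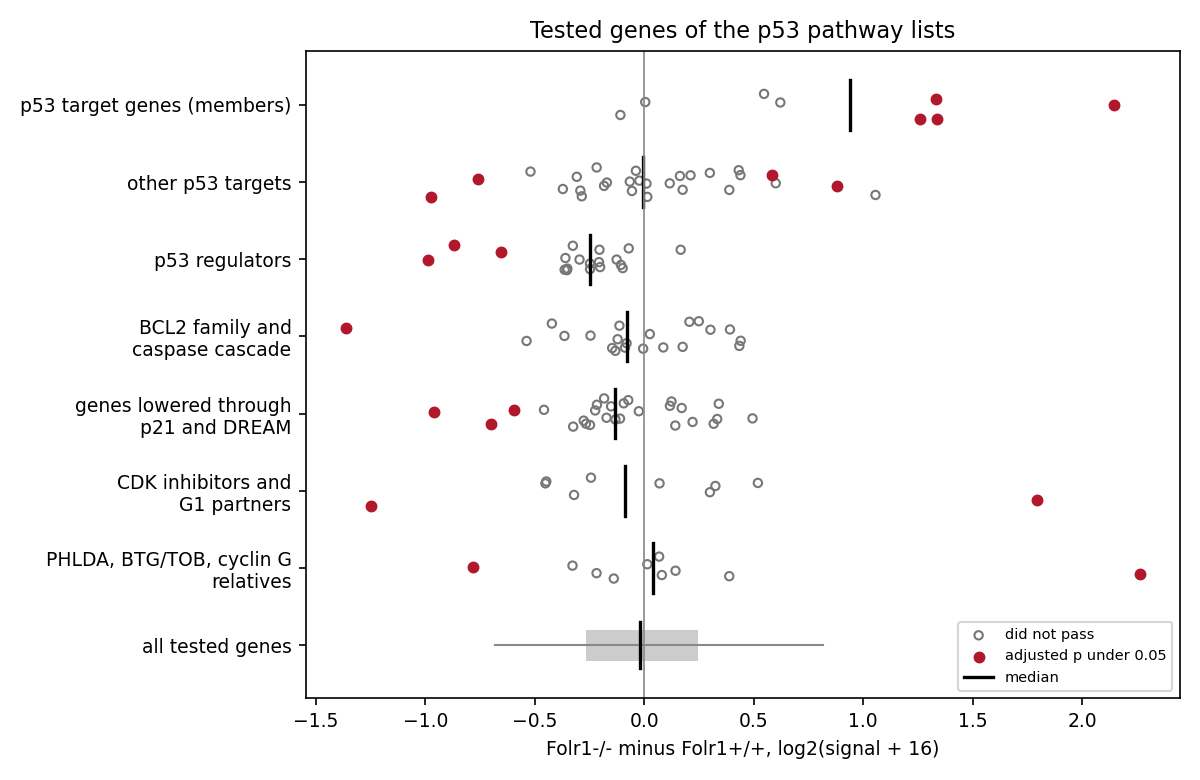
Log2 fold change of Folr1-/- over Folr1+/+ (horizontal axis) of each tested gene in 7 lists of the p53 pathway, with black lines at list medians; filled points passed an adjusted p of 0.05. The bottom row shows all tested genes, with the box from the 25th to the 75th percentile and the line from the 5th to the 95th. The 8 p53 target genes had a median of 0.94, and the medians of the other lists lay between -0.25 and 0.041. All 7 lists were chosen with earlier results of these data known.

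Regulators of p53 had 0 genes called higher, 3 lower and 16 not passing among 19 tested (median -0.25), where 6.79% of all genes were called lower. Mdm4, the partner of Mdm2 in restraining p53, had signals of 83.4 and 129 in Folr1-/- arrays against 187, 247 and 181 in Folr1+/+ arrays (log2 fold change -0.87 ± 0.21, SE, limma adjusted p = 0.016). The p53 relative Trp63 had -0.99 ± 0.23 (0.013) and the acetyltransferase gene Crebbp -0.65 ± 0.18 (0.028). Without Folr1-/- replicate 1 none of the 3 passed (-0.60, -1.03 and -0.54), and without Folr1-/- replicate 2 Mdm4 alone did. Mdm4 also lost its call when its probe sets were averaged (-0.64, 0.058), and all 3 did with no filter on dim genes. Without Folr1+/+ replicate 3 Trp63 and Crebbp lost their calls, and without Folr1+/+ replicate 2 Crebbp did.

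Genes of the apoptotic machinery came next. Of 21 tested members of the BCL2 family and the caspase cascade, 0 rose, 1 fell and 20 did not pass (4.76% called, against 15.0% of all genes). The 1 that fell was Casp2, an initiator caspase gene, with signals of 284 and 284 in Folr1-/- arrays against 594, 1032 and 702 in Folr1+/+ arrays (log2 fold change -1.36 ± 0.21, SE, limma adjusted p = 0.0011). Bcl2l11, which encodes the death protein BIM, had -0.54 ± 0.17 (0.057).

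The genes that p21 lowers through the DREAM repressor complex were counted next, since Cdkn1a had the largest change. Of 27 tested (median -0.13), 0 rose, 3 fell and 24 did not pass. The 11.1% called were all lower, where 6.79% of all genes were called lower and 15.0% in either direction. The 3 were the mitotic transcription factor gene Foxm1 (-0.96 ± 0.16, SE, limma adjusted p = 0.0020), the spindle checkpoint gene Bub1b (-0.70 ± 0.15, 0.010) and the replication helicase gene Mcm5 (-0.60 ± 0.16, 0.025). Averaging the probe sets of Foxm1 gave -0.47 and no call (0.114). Bub1b lost its call without either Folr1-/- array, and Mcm5 without Folr1-/- replicate 2 (-0.37, 0.206), Folr1+/+ replicate 1 (0.057) or Folr1+/+ replicate 3 (0.076).

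Among other inhibitors of cyclin-dependent kinases and their G1 partners, 1 of 10 tested genes rose and 1 fell, near the 8.19% and 6.79% of all genes. Cdkn1c, the p57 gene, had signals of 2744 and 2202 in Folr1-/- arrays against 649.7, 757 and 693 in Folr1+/+ arrays (log2 fold change 1.79 ± 0.15, SE, limma adjusted p = 2.1e-05). Ccnd2, the cyclin D2 gene, fell to 1147 and 1188.5 in Folr1-/- arrays, against 2840.5, 2737 and 2814 in Folr1+/+ arrays (-1.25 ± 0.13, 9.6e-05). Cdkn1b, the p27 gene, had -0.32 ± 0.21 (0.336). Averaging the probe sets of Ccnd2 gave -0.51 and no call (0.127). Without Folr1-/- replicate 2, 2 genes of this list were called higher, and without Folr1+/+ replicate 2, 2 were called lower.

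Relatives of the set had 1 gene called higher and 1 lower among 10 tested, likewise near the shares of all genes. Phlda2, an imprinted relative of Phlda3, had signals of 684 and 598 in Folr1-/- arrays against 142, 90.3 and 135 in Folr1+/+ arrays (log2 fold change 2.26 ± 0.19, SE, limma adjusted p = 2.3e-05). Phlda1 had 0.39 ± 0.19 (0.202). Ccng2, the closest relative of Ccng1, had -0.22 ± 0.18 (0.451), Btg1 0.07 ± 0.15 (0.80) and Trp53inp2 0.14 ± 0.19 (0.653). Ccni, a cyclin gene of the same group, had -0.78 ± 0.16 (0.0068) and lost its call without Folr1-/- replicate 1 (-0.68, 0.090) and when its probe sets were averaged (-0.42, 0.122).

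Markers of several cell types moved between the same arrays, and their part in the change of the p53 target genes was not tested. All 21 measured markers of visceral endoderm and yolk sac rose, where 8.19% of all tested genes were called higher. Their summed signal was 20688 and 20987 in Folr1-/- arrays against 3588 to 4757 in Folr1+/+ arrays. Desmosome and surface epithelium genes rose in 11 of 15 tested, with 1 lower, and their sums were 9685 and 10039 in Folr1-/- arrays against 3908 to 4337 in Folr1+/+ arrays. Trophoblast and decidua markers had sums of 608 and 495 in Folr1-/- arrays against 226 to 249 in Folr1+/+ arrays, with 5 of 10 under a signal of 16 in both Folr1-/- arrays, Tpbpa among them. The 3 bright enough to test, Prl8a2, Plac1 and Hand1, rose (1.44, 1.30 and 0.78), and 1 did without Folr1-/- replicate 1 or without Folr1+/+ replicate 3.

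Perp belongs to the desmosome, whose genes differed among themselves. The desmosomal cadherin genes Dsc2 and Dsg2 had log2 fold changes of 1.31 ± 0.19 and 1.20 ± 0.18 (SE, limma adjusted p = 0.00070 and 0.0012), and the plakophilin gene Pkp2 1.19 ± 0.18 (0.0012). Dsp, the desmoplakin gene, had 0.09 ± 0.24 (0.833) and Pkp3 0.25 ± 0.22 (0.490), and the plakoglobin gene Jup was too dim to test. Signals of Jup were 43.2 and 64.4 in Folr1-/- arrays against 19.9, 8.04 and 27.0 in Folr1+/+ arrays. With no filter Jup did not pass (1.05 ± 0.29, limma adjusted p = 0.080). The epithelial genes with the largest changes on the list were those of the simple keratins, Krt18 (1.82 ± 0.20, 0.00012) and Krt8 (1.72 ± 0.17, 5.2e-05). Trp63, which drives Perp in stratified epithelia of the mouse, had signals of 19.9 and 17.8 in Folr1-/- arrays against 38.7 to 68.9 in Folr1+/+ arrays. Pkp1, a plakophilin of stratified epithelium, was under a signal of 16 on all 5 arrays.

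Markers of neural progenitors, neural crest, somites and primitive erythroid cells were lower in the same arrays. Neural progenitor genes fell in 10 of 11 tested, neural crest genes in 6 of 10 and somite genes in 6 of 6. Of all tested genes, 6.79% were called lower. Neural progenitor genes summed to 493 and 557 in Folr1-/- arrays against 1905 to 2073 in Folr1+/+ arrays. Neural crest genes summed to 858 and 879 in Folr1-/- arrays against 1501 to 1744 in Folr1+/+ arrays, and somite genes to 318 and 399 in Folr1-/- arrays against 958 to 1127 in Folr1+/+ arrays. Primitive erythroid genes fell in 6 of 9, with sums of 346 and 813 in Folr1-/- replicates 1 and 2 against 5560 to 6496 in Folr1+/+ arrays. Without Folr1-/- replicate 1, median log2 fold changes were -1.22 (somite), -0.54 (neural crest), 2.22 (endoderm) and 1.16 (epithelial). Without Folr1-/- replicate 2 they were -1.44, -0.81, 2.30 and 1.22 in that order. Zic1 and Sox10 were under a signal of 16 in both Folr1-/- arrays.

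**Figure D5:**
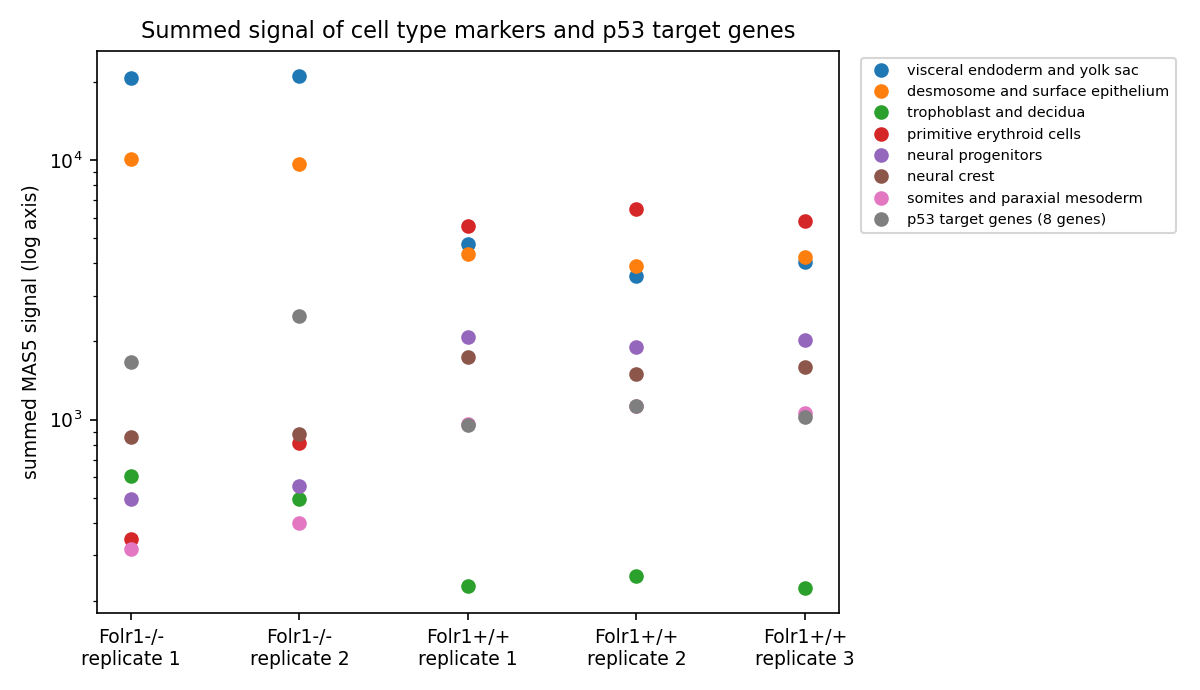
Summed MAS5 signal (vertical log axis) of 7 cell type marker lists and of the 8 p53 target genes in each array, Folr1-/- replicates left and Folr1+/+ replicates right. The p53 target genes summed to 1671 and 2505 in Folr1-/- arrays and to 952 to 1133 in Folr1+/+ arrays.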

How the data were processed

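For each of 5 arrays the authors deposited 1 linear intensity per probe set, a MAS5 signal per the submitters' processing notes, with no version stated. Their mean after trimming 2% at each end was about 150.06 on every array, and this scaling was kept. Of 22690 probe sets, 64 were controls, 20380 had 1 gene symbol in the platform annotation, 691 several and 1555 none listed. No detection calls were used. Per gene, the brightest probe set by mean log2(signal + 16) was taken, and genes under the 40th percentile (4957) were left out. Differences were tested with limma 3.58.1 in R 4.3.3 (lmFit, eBayes with an intensity trend, 3 residual degrees of freedom), with Benjamini-Hochberg adjustment over all 7436 genes or, for single probe sets, all 12228. The pseudocount of 16 understates the change of dim genes. The code was tested on simulated arrays. Precision is limited by having 5 arrays.

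The members and gene lists were chosen with earlier results of these data known. All members are named; the rule further allowed the closest relatives and, from each list, up to 8 genes that passed, by size of change, of which some are named. Aen, Sesn1, Sesn2, Fas, Pmaip1, Bcl2l11, Cdkn1b, Dcxr, Dsp, Jup, Pkp1, Pkp2, Pkp3 and Tpbpa were chosen after their values were seen. Promoter sequences are from RefSeq. The alternatives changed the pseudocount, filter, normalization, trend, array weights, choice of probe set, covariate, block and arrays.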

Additional observations from a re-analysis of the deposited data

How the results depend on the processing

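Among the 16 alternatives, the calls of Cdkn1a, Ccng1 and Perp held under every one that kept both Folr1-/- arrays. That of Trp53inp1 did too, except with the mean of its probe sets. The alternatives were not all separate checks. Filter and trend settings left each log2 fold change as it was, and averaging did so for Perp, which has 1 probe set. The replicate block gave the same fold changes as leaving out Folr1+/+ replicate 3 (2.12 for Cdkn1a). The number of p53 target genes called was 3 to 5 of 8 over these settings. Phlda3 passed without Folr1+/+ replicate 2 (0.85) and with the Actb 3'/5' probe set ratio, a measure of RNA length, entered in the fit (0.73, limma adjusted p = 0.041). That ratio was 30.5 and 22.8 in Folr1-/- arrays and 21.1, 39.5 and 29.1 in Folr1+/+ arrays, so signal was far stronger at the 3' end on every array. Its part in the differences between probe sets of a gene was not tested. Against 0.94, the 8 genes had a median of 0.68 with a pseudocount of 64 and of 0.60 when probe sets were averaged per gene. Btg2 and Zmat3 had values near 0 that turned sign: leaving out 1 array gave Btg2 values of -0.56 to 0.34, positive without Folr1-/- replicate 1 (0.34) or Folr1+/+ replicate 2 (0.017), and Zmat3 values of -0.32 to 0.33, negative without Folr1-/- replicate 2 (-0.32) or Folr1+/+ replicate 1 (-0.084). Quantile normalization put Zmat3 at -0.036. The count of other p53 targets was 2 when probe sets were averaged per gene and 1 to 4 when 1 array was left out. The number of genes called ranged from 369 to 1007 when 1 array was left out, lowest without Folr1-/- replicate 1, with 664 without Folr1-/- replicate 2 and 636 without Folr1+/+ replicate 3. The number of probe sets called was 856 with no filter, 936 with the replicate block and 406 to 1266 when 1 array was left out, against 1415. With each array centred on its median, 733 of 1094 called genes were higher (67.0%, against 54.7%). The replicate numbers are not stated to pair arrays, and same-numbered arrays did not deviate together (r = 0.019 and -0.056 over genes); the replicate block left 899 genes called and changed no call of the 8 genes. A filter at the 60th percentile left Btg2 and Phlda3 untested. The causes of these shifts were not tested.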
